A study of Mus musculus with 8 samples.

Results

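The cytosolic ribosomal protein (RP) genes were followed in single sorted myeloid cells from irradiated and untreated mouse tumors and from the blood of tumor-bearing mice. Members were chosen by symbol alone: every gene row named Rpl, Rps or Rplp with a number, and Rpsa, leaving out symbols with -ps, the Rps6k kinases and Rps19bp1. The rule gave 85 of 32285 genes, of which 52 encode large-subunit and 33 small-subunit proteins. The study compared cells of the CD45+CD11b+Ly6Chi surface phenotype, which it uses for monocytic myeloid-derived suppressor cells, between tumors of MC38 (a mouse colon carcinoma line) and blood. Tumors were left untreated (control) or given 1 local dose of 20 Gy of ionizing radiation (IR), and cells were taken 3 days later. All mice were young adults of both sexes that bore MC38 tumors and carried 2 floxed Ythdf2 alleles. In WT mice the floxed alleles were intact, and in Ythdf2-cKO (cKO) mice Cre was expressed from Lyz2, a lysozyme locus active in myeloid cells. The question was how the share of messenger RNA molecules that encode RPs differed with IR, with the Ythdf2 label, with tissue and with cell type.

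Cells of several mice were pooled for each of the 8 groups, and the WT and cKO pools of one tissue and treatment were run together in 1 of 4 droplet libraries. Each group was therefore 1 sample, no test between groups could be made, and every interval below is a 95% interval for counting error only. A cell was labelled WT or cKO by its hashtag antibody, with at least 20 hashtag UMIs (unique molecular identifiers, each standing for 1 captured molecule) required. After filtering, 27538 cells were kept, from 2156 to 4628 per group, with 18771026 to 24184675 gene UMIs per group. The labels were checked first. Ythdf2 stood at 32.7 to 53.8 UMIs per 1000000 gene UMIs (CPM) in the WT groups and at 301.4 to 368 in the cKO groups, against the label. These 3′ counts do not show which exons a molecule carries, so they do not check the deletion. Lyz2, the locus that holds Cre, stood at 5712 to 14140 CPM in WT and at 82.7 to 139 in cKO. Groups are therefore named below by their hashtag label, and a direction drawn from WT and cKO is that of the labels. The 2 tumor matrices also held each other's cells. Of barcodes called as cells with under 20 hashtag UMIs, 7124 of 7126 in the tumor control matrix and 4795 of 4798 in the tumor IR matrix were hashtagged barcodes of the other tumor matrix. The hashtag minimum removed them, and the comparison of IR with control in tumor is given with and without it. IR against control and tumor against blood each set 1 library against another, so library and condition cannot be told apart in the sums.

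Ribosomes are built from a small and a large subunit, and most RPs are present in a single copy per ribosome. In mice most RPs are encoded by a single active gene, and a few have a paralog with a restricted expression pattern. Their mRNAs typically begin with a C followed by a run of pyrimidines, the terminal oligopyrimidine (TOP) tract, through which their translation follows nutrient and growth signals, and they are among the most abundant mRNAs of most cells. YTHDF2 binds mRNAs that carry N6-methyladenosine and promotes their decay.

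All 85 members were matched by identifier in the annotation and were protein-coding. They lay on 19 chromosomes, with 14 on chromosome 7 and 4 on chromosome X. Coding length ran from 138 to 1257 bases with a median of 456, against 1155 over 22119 genes with a coding sequence. RefSeq start-site windows (GRCm38.p6) were found for 65 members. The letters CTTTC, a short pyrimidine run opening with C, stood on the gene's strand within 20 bases of a start in 20 of the 65 (30.8%) and in 1741 of 27025 genes of the same table (6.44%). Their reverse complement GAAAG stood there in 4 of the 65 (6.15%) and in 5.67% of all genes. The 7 genes on which the comparisons below turn are shown here by 30 bases around the start, 5′ to 3′ on the gene's strand, with CTTTC in capitals. The windows open 15 bases before the start, and 20 bases before it for Rpl5. Starts and placements that held CTTTC were preferred. The capitals lie before the start in some genes and after it in others, so they do not by themselves mark the TOP tract. They are Rpl13 (chr8:123102335-123102364, plus strand), the member with the highest mean level, and Rpl12 (chr2:32961697-32961726, plus) and Rpl5 (chr5:107900508-107900537, plus), low after IR in tumor. Next are Rps27 (chr3:90213634-90213663, minus), low after IR in blood, and its near-copy Rps27rt (chr9:114982725-114982754, minus). The last are Rps9 (chr7:3704026-3704055, plus), among the members least lowered in neutrophil-like against monocyte-like cells, and Rpl3l (chr17:24727811-24727840, plus), a paralog of Rpl3.
Rpl13: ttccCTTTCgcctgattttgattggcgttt
Rpl12: ggcggagcaggatccgtcttttcggCTTTC
Rpl5: ctCTTTCtcacgtcgcttgcgtgctggtgg
Rps27: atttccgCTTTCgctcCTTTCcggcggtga
Rps27rt: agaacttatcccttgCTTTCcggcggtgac
Rps9: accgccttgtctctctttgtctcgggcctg
Rpl3l: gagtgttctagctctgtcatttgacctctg
Rps9 and Rpl3l have no CTTTC in the window, and Rps9 has another pyrimidine run. Rps27 and Rps27rt share a run of 38 bases in the table of start sites. The 3′ parts that these libraries read were not compared, so whether reads were split between Rps27 and Rps27rt, between Rpl36a and Rpl36al, or between Rpl9 and its -ps symbols was not tested, and the separate levels of these genes are uncertain.

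Levels are given as CPM of the UMIs summed over the cells of a group, which counts molecules and so needs no correction for length. Of the 85 members, 72 had a mean of at least 1000 CPM over the 8 groups, 8 lay between 100 and 1000, and 5 lay below 100. Members filled 49 of the 100 highest places among all genes. Rpl13, a large-subunit protein, was the highest, at 5027 CPM in tumor control WT, 5583 in tumor control cKO, 3360.0 in tumor IR WT, 3111 in tumor IR cKO, and 2675 to 3008 in the 4 blood groups. Other members of high level were Rps27a (mean 3351 CPM), which encodes a fusion of ubiquitin and a small-subunit protein, Rps29 (3347), Rps24 (3289), Rps9 (3272), Rpl23 (3148), Rpl19 (2824), Rps16 (2798) and Rps10 (2699.6). The 10 highest members held 21.1% of the RP level. The stalk proteins, which recruit elongation factors to the ribosome, stood at 2440 CPM (Rplp0), 2559 (Rplp1) and 1751 (Rplp2), and Rpsa, a small-subunit protein also known as a laminin receptor, at 2345. The 5 lowest were Rps27rt (60.7 CPM), Rpl7l1 (49.97), Rpl3l (11.3), Rpl39l (0.36, from 61 UMIs in all) and Rpl10l, for which no UMI was counted in the kept cells. Rpl39l and Rpl10l are known for expression in testis. The other 83 members had at least 100 UMIs in every comparison between groups, and counts of members below are out of these 83.

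The RP share is the sum over the 85 members as a percent of gene UMIs. It was 18.8% in tumor control WT (18.83 to 18.86) and 19.985% in tumor control cKO (19.97 to 20.001). After IR it was 13.4% in tumor WT (13.42 to 13.45) and 13.1% in tumor cKO (13.12 to 13.15). The blood groups lay at 14.0% (control WT), 13.4% (control cKO), 13.3% (IR WT) and 13.8% (IR cKO). The untreated tumor groups thus stood above the others, which lay close together. The order was different for the median cell, which held 16.3% and 16.6% in the untreated tumor groups, 10.8% and 11.1% in the irradiated tumor groups, and 4.28% to 5.18% in blood. With each cell thinned to 500 UMIs the medians were 16.0%, 16.6%, 10.6% and 10.8% in tumor and 4.4% to 5.4% in blood. Free RNA, taken from barcodes far below the cells in each library, held 17.2% (untreated) and 13.6% (irradiated) RP UMIs in tumor and 11.97% and 10.8% in blood.

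The share differed more between cell types than between the 8 groups. Clusters were named from marker genes, and a class is described where a group held at least 50 of its cells. The sort gate had left mostly neutrophil-like cells in blood (67.7% to 71.8% of each group) and macrophage-like cells in tumor (45.6% to 64.1%). The RP share was highest in T cell-like cells, at 36.1% in 66 cells. It was 25.4% in 69 B cell-like cells, with both classes pooled over groups, and 25.6% to 27.8% in fibroblast-like cells. NK cell-like cells stood at 22.5% to 28.8% in tumor and 16.0% to 16.9% in blood, and dendritic cell-like cells at 16.0% to 20.4% in tumor and 23.2% to 24.2% in blood. Monocyte-like cells (Ly6c2, Ccr2, Vcan) of blood held 19.3% to 20.9% and nonclassical monocyte-like cells 18.4% to 19.5%. Macrophage-like cells held 11.9% to 16.8%, and 25 mast cell or basophil-like cells 10.8%. Monocyte-like cells of irradiated tumors, a cluster led by interferon-stimulated genes such as Ifit2 and Rsad2, held 9.77% and 10.2%. A further 3 classes lay below all of these: neutrophil-like cells (S100a8, S100a9, Retnlg) of blood at 3.53% to 4.29%, the unnamed cluster 11 of irradiated tumors (led by Ccl3 and G0s2) at 2.98% and 3.21%, and cluster 12, a cluster of low UMI counts and 5.89% to 9.11% mitochondrial UMIs, at 4.32% to 6.11%. Median UMIs per cell ranged over 6361 to 13212 in monocyte-like cells and 2493 to 2654 in neutrophil-like cells. Within each of the 4 blood pools monocyte-like cells held a higher share than nonclassical monocyte-like cells, with counting intervals apart, at 20.3% against 19.03% (control WT), 20.9% against 19.3% (control cKO), 19.3% against 18.4% (IR WT) and 19.9% against 19.5% (IR cKO). Cluster 7 (led by Cxcl10) stood above macrophage-like cells in 3 of the 4 tumor groups, at 17.6% against 16.0% in control WT, 17.2% against 11.9% in IR WT and 17.5% against 12.01% in IR cKO, and below them in control cKO, at 16.2% against 16.8%.

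**Figure D1:**
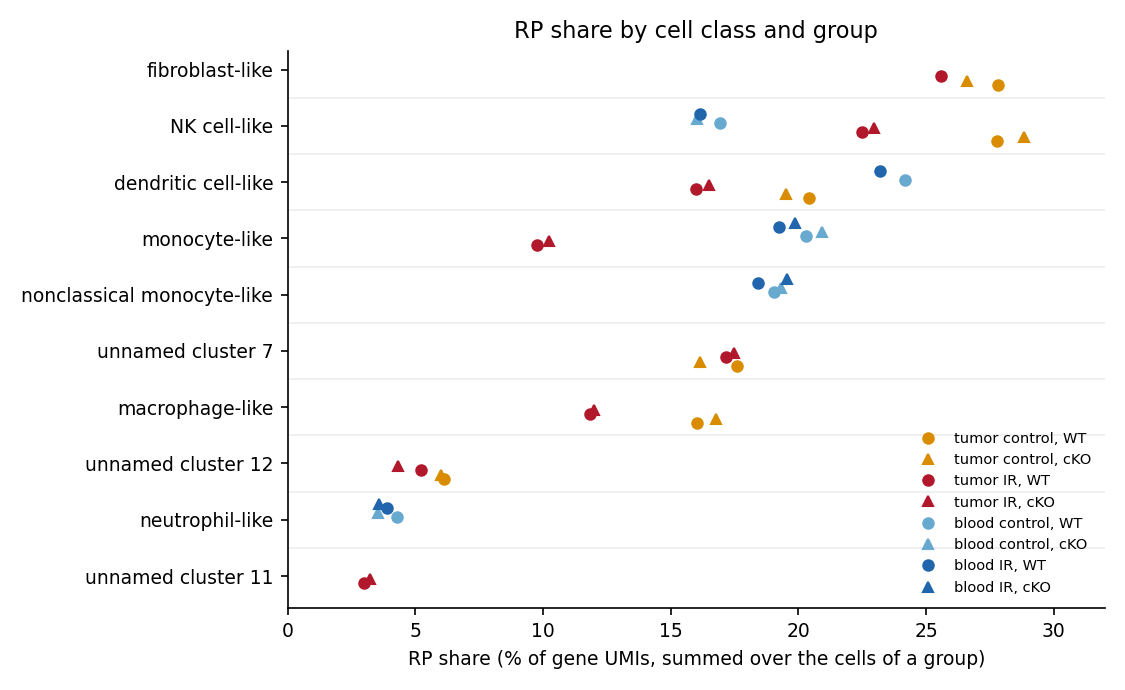
RP share (percent of gene UMIs summed over the cells of a group, x axis) for each cell class (rows), with 1 point per group that held at least 50 cells of the class. Circles are cells labelled WT, triangles cKO, and colors give tissue and treatment. Neutrophil-like cells sit at 3.53% to 4.29%, and monocyte-like cells lie at 19.3% to 20.9% in blood and near 10% in irradiated tumor.

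In tumor, RP genes were lower after IR nearly without exception. The share ratio of IR against control on the log2 scale was -0.49 in WT (0.713-fold) and -0.61 in cKO (0.657-fold). Of the 83 members, 82 were lower in WT, where 64.3% of 10132 genes were, and 81 in cKO, where 61.1% of 10661 were. The median member stood at -0.46 in WT and -0.56 in cKO, and the median gene at -0.13 and -0.18. In WT 30 members were lower by at least 0.5 (17.3% of all genes), and in cKO 55 were (33.1%). Only Rpl5 in cKO was lower by at least 1 (17.1% of all genes), and in WT no member passed 1 in either direction (2.65% of all genes were higher and 2.95% lower by that much). In WT 1 member was higher (35.7% of all genes) and in cKO 2 (38.9%). TMM scaling, a scaling on the bulk of genes, raised all log2 ratios by 0.15 in WT and 0.21 in cKO. Under it 81 and 78 members were lower, beside 47.6% and 48.4% of all genes, and the share ratios were -0.34 and -0.40. The members lower by at least 0.5 then numbered 8 in WT, where 10.6% of all genes were, and 21 in cKO, where 25% were, which are shares near those of all genes. Both subunits moved alike, with ratios of the summed large-subunit members at -0.48 and -0.62 and of the small-subunit members at -0.50 and -0.59.

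Rpl5, which binds the smallest ribosomal RNA of the large subunit, was the lowest member in both labels. It stood at 1719 CPM in tumor control WT against 980.3 in tumor IR WT, and at 1976 against 939 in cKO, for log2 ratios of -0.81 (-0.84 to -0.78) and -1.07 (-1.10 to -1.05). Rpl12, a large-subunit protein at the base of the stalk, stood at 1912 against 1164 CPM in WT (-0.72) and 2327 against 1192 in cKO (-0.97). Rps6, the small-subunit protein that S6 kinases phosphorylate, stood at 1961 against 1201 in WT (-0.71) and 2213 against 1183 in cKO (-0.90), and Rpl36a was at -0.69 and -0.97. In each of these 4 genes both irradiated groups lay below both control groups. The stalk genes Rplp0, Rplp1 and Rplp2 were at -0.45, -0.45 and -0.41 in WT and at -0.70, -0.58 and -0.34 in cKO. The members least lowered were mostly paralogs of low level. Rpl3l was higher, at 5.4 against 3.7 CPM in WT (0.55, interval 0.12 to 0.998) and 5.3 against 2.2 in cKO (1.27, 0.81 to 1.78), and was the only member higher by at least 1 in cKO (5.28% of all genes). Rps27rt stood at -0.025 and 0.018. Rpl36al, the paralog of Rpl36a, was at -0.29 and -0.13, and Rpl7l1 at -0.17 and -0.33. Under TMM scaling Rpl3l and Rps27rt lay above 0 in both labels, and Rpl36al (0.078), Rps27l (0.016) and Rps29 (0.0045), a member of high level, did so in cKO.

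**Figure D2:**
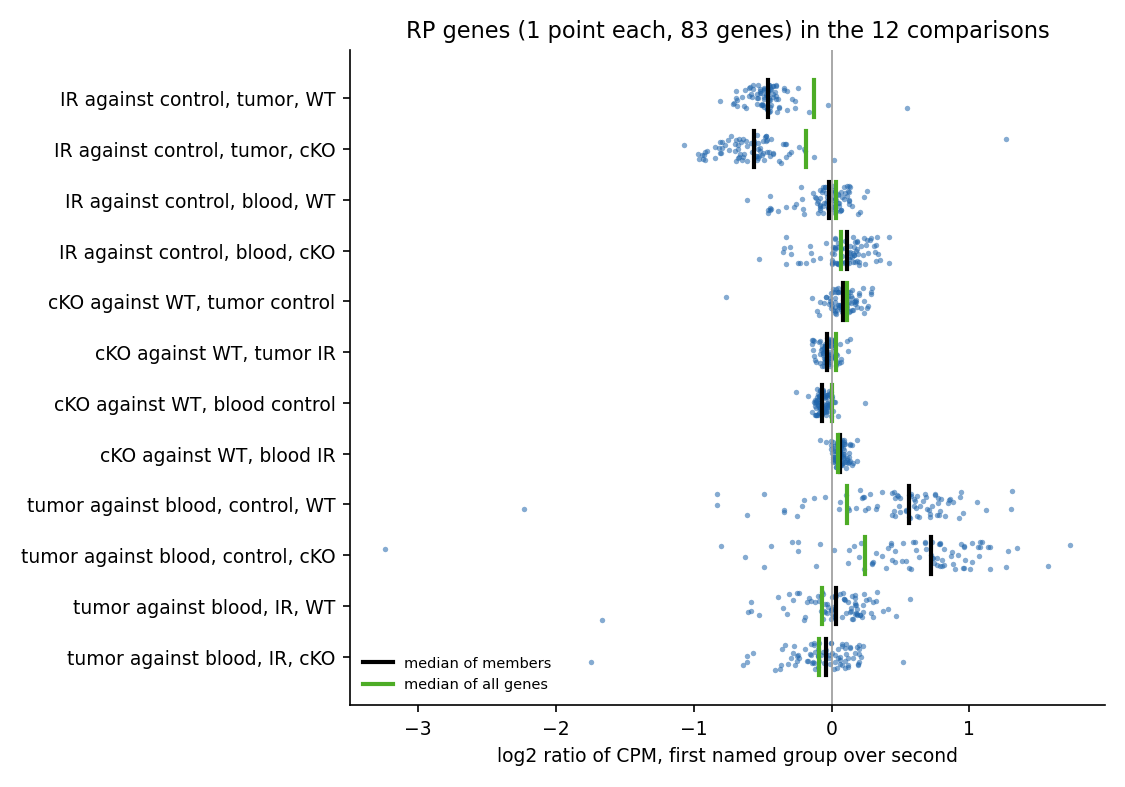
Log2 ratio of CPM (x axis, first named group over second) of the 83 RP genes with at least 100 UMIs, 1 point each, in the 12 comparisons between groups (rows, points jittered in height). Black bars are medians of RP genes and green bars medians of all genes. In tumor after IR the RP medians lie at -0.46 and -0.56, below the medians of all genes, while the blood and genotype comparisons center near 0.

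Most genes of the translation machinery outside the rule were lower beside the members. Rack1, a scaffold on the small subunit, was at -0.63 in WT and -0.87 in cKO. Fau, which encodes a ubiquitin-like fusion with a small-subunit protein, was at -0.22 and 0.048. All 7 elongation factors were lower (medians -0.60 and -0.97), as were all 21 initiation factors (-0.31 and -0.48). Of 15 other mRNAs known for a TOP start, 14 and 13 were lower (-0.41 and -0.51), with Npm1, a nucleolar protein, at -0.75 and -1.47. Mitochondrial RPs were lower in 65 and 71 of 78 (-0.29 and -0.51), the mitochondrially encoded genes in 7 and 12 of 13 (-0.051 and -0.19), and the ribosomal S6 kinases in 6 and 6 of 7 (-0.15 and -0.28). Under TMM scaling the median of the mitochondrially encoded genes lay above 0 in both labels and that of the S6 kinases near 0 in WT, while the medians of the other lists kept their sign. Interferon-stimulated genes were higher in 9 of 9 (medians 2.70 and 3.89). Of 8 cycling genes, 6 were lower in WT (-0.45) and 8 in cKO (-2.49). Their part in the lower RP share was not tested.

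The barcodes of each tumor group were also found in the other tumor matrix. The tumor control cells, read from the tumor IR matrix where their barcodes carried 45.6% and 45.9% as many UMIs, held 18.8% and 19.9% RP UMIs. The tumor IR cells, read from the tumor control matrix with 59.2% and 58.9% as many UMIs, held 13.6% and 13.3%. With both groups taken from the same matrix, the log2 ratio was -0.47 or -0.49 in WT and -0.58 or -0.60 in cKO. The UMIs of a barcode in the 2 matrices may be counts of the same molecules, so these values are not a second measurement. Without the hashtag minimum, so with each matrix holding cells of both treatments, the shares were 17.1% over 12439 control cells and 15.1% over 12524 IR cells. The log2 ratio of the 2 labels together was then -0.18, against -0.55 with the minimum.

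The lower share after IR was present inside most tumor cell classes. Macrophage-like cells held 16.0% in control and 11.9% after IR in WT (-0.44) and 16.8% and 12.01% in cKO (-0.48). In them 81 of 83 members were lower in WT and 81 in cKO, where 56.5% and 53.3% of all genes were. Rpl5 was lowest of the macrophage-like members in WT (-0.71) and Rpl3, a protein near the site of peptide bond formation, in cKO (-0.84), while Rpl3l (0.59 and 0.86) and Rps27rt (0.00 and 0.19) were the highest. Each of the 3 macrophage-like clusters was lower, by -0.70 to -0.27 in WT and -0.44 to -0.26 in cKO. NK cell-like cells went from 27.8% to 22.5% in WT (-0.31) and from 28.8% to 23.0% in cKO (-0.33). A clustering at higher resolution gave a T cell-like cluster with 39 (WT) and 29 (cKO) tumor control cells, and 12 and 14 after IR. The NK cell-like values may therefore include T cells, whose part in these ratios was not tested. Dendritic cell-like cells went from 20.4% to 16.0% (-0.35) and from 19.5% to 16.5% (-0.24). Fibroblast-like cells, with 115 and 85 cells in WT, went from 27.8% to 25.6% (-0.12), and cluster 12 had ratios of -0.22 and -0.48.

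Cluster 7, which was led by Cxcl10, Socs1 and Irf1, was the exception. It held 17.6% in control and 17.2% after IR in WT (-0.037, interval -0.043 to -0.031) and 16.2% and 17.5% in cKO (0.11, 0.11 to 0.12). Summed interferon-stimulated genes were higher after IR in cluster 7 too, at 877.6 and 776.9 CPM in control and 2041 and 1765 after IR, as in macrophage-like cells (691.6 and 429.1 against 2471 and 2569). Over all clusters with at least 20 cells on both sides, the share was lower in 10 of 10 in WT and 8 of 9 in cKO. The mix of clusters moved with IR as well. With the cluster shares of UMIs held as in control, the log2 ratio was -0.26 in WT and -0.20 in cKO, and with only these shares changed it was -0.15 and -0.30. These shares depend on UMIs per cell as well as on cell numbers, so they are not the mix of cells alone.

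**Figure D3:**
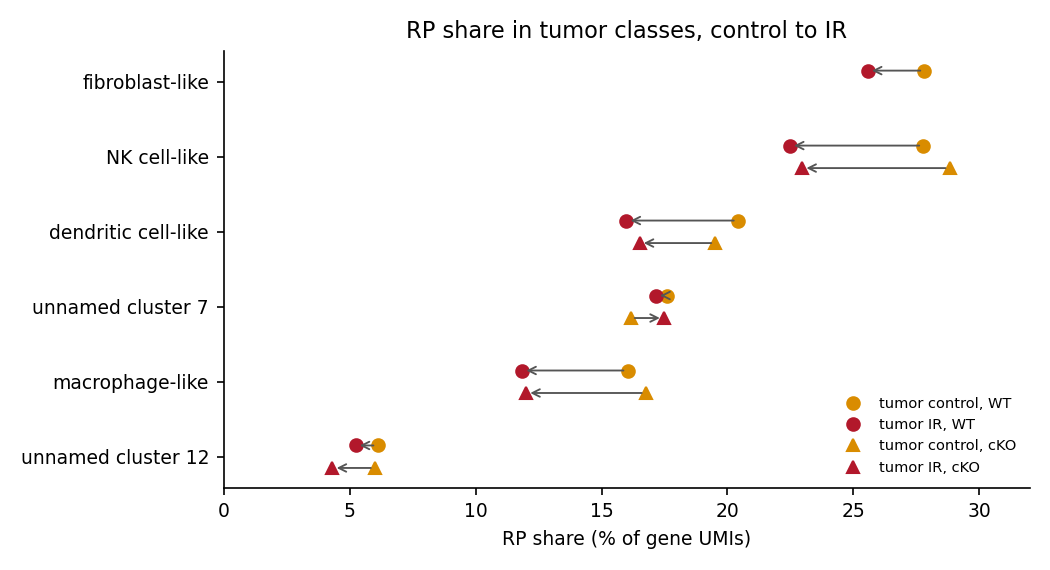
RP share (percent of gene UMIs, x axis) in tumor cell classes (rows) with at least 50 cells on both sides, with an arrow from control (orange) to IR (red). Circles are cells labelled WT and triangles cKO. Arrows point to lower shares except in cKO cells of cluster 7, which went from 16.2% to 17.5%.

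In blood the share differed little after IR, but the members moved apart by length. The log2 ratio of the share was -0.077 in WT and 0.053 in cKO, and TMM scaling turned the latter to -0.017. In WT 39 members were higher (56.7% of all genes) and 44 lower (43.3%), and in cKO 68 were higher (62.7%) and 15 lower (37.3%), with 47 higher and 36 lower under TMM scaling. Taken as a mean over cells the ratios were -0.17 and -0.11. Monocyte-like cells alone stood at -0.077 and -0.074, nonclassical monocyte-like cells at -0.046 and 0.015, and neutrophil-like cells at -0.15 and 0.025. Within the neutrophil-like clusters 0, 1, 6 and 10 the ratios were all below 0 in both labels, at -0.17, -0.095, -0.0039 and -0.21 in WT. In cKO the same clusters stood at -0.18, -0.14, -0.14 and -0.23, and cluster 6 held 1131 cells in control and 56 after IR. With the cluster shares of UMIs held as in control the ratio was -0.051 in WT and -0.029 in cKO. Rps27, a zinc-finger protein of the small subunit, was the lowest member in both labels. It stood at 2742 CPM in blood control WT against 1788 in blood IR WT and at 2431 against 1689 in cKO, for log2 ratios of -0.62 (-0.64 to -0.60) and -0.53 (-0.55 to -0.51), and was the only member lower by at least 0.5 (3.82% and 3.72% of all genes). Rpl38 (-0.46 and -0.35), Rps28 (-0.46 and -0.33), Rps29 (-0.44 and -0.36) and Rpl37 (-0.44 and -0.30) followed. Rps2 was the highest, at 942.7 against 1129 CPM in WT and 956.8 against 1279.8 in cKO (0.26 and 0.42), with Rpsa at 0.21 and 0.41 and Rpl4 at 0.24 and 0.32. The 5 low genes have short coding sequences and Rps2, Rpsa and Rpl4 long ones. Rps27l, whose coding sequence of 315 bases is short, was at 0.15 in WT and was the third highest member in cKO, at 217.9 against 277.9 CPM (0.35).

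Over the 83 members the blood log2 ratio was higher for longer coding sequences, with Pearson's r of 0.73 in WT and 0.59 in cKO (Spearman's rho 0.67 and 0.55). These values describe genes counted in the same libraries, and genes are not independent replicates. In WT 24 of the 28 shortest members (up to 399 bases) lay below 0, with a median of -0.21, as did 14 of the 28 middle members and 6 of the 27 longest (588 bases and more, median 0.069). In cKO 14 of the 28 shortest members lay below 0, with a median of -0.020, as did 0 of the 28 middle members (median 0.11) and 1 of the 27 longest (median 0.18). The relation with length was present within cell types. In monocyte-like cells r was 0.74 and 0.68, in nonclassical monocyte-like cells 0.75 and 0.50, and in neutrophil-like cells 0.60 and 0.41. Rps27 in monocyte-like cells was at -0.59 and -0.63. It was also present in free RNA, where r over 81 members was 0.65 and Rps27 was at -0.63. WT and cKO cells of one treatment shared a library, so a difference between libraries and a difference from IR cannot be told apart here. The mitochondrial RPs, which are not members, were higher in 69 and 75 of 78 after IR in blood (medians 0.16 and 0.25), and the elongation factors in 6 of 7 in both labels (0.095 and 0.21). For IR against control in tumor the sign of the relation with length was the other way, with r of -0.16 and -0.23 (rho -0.42 and -0.50).

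**Figure D4:**
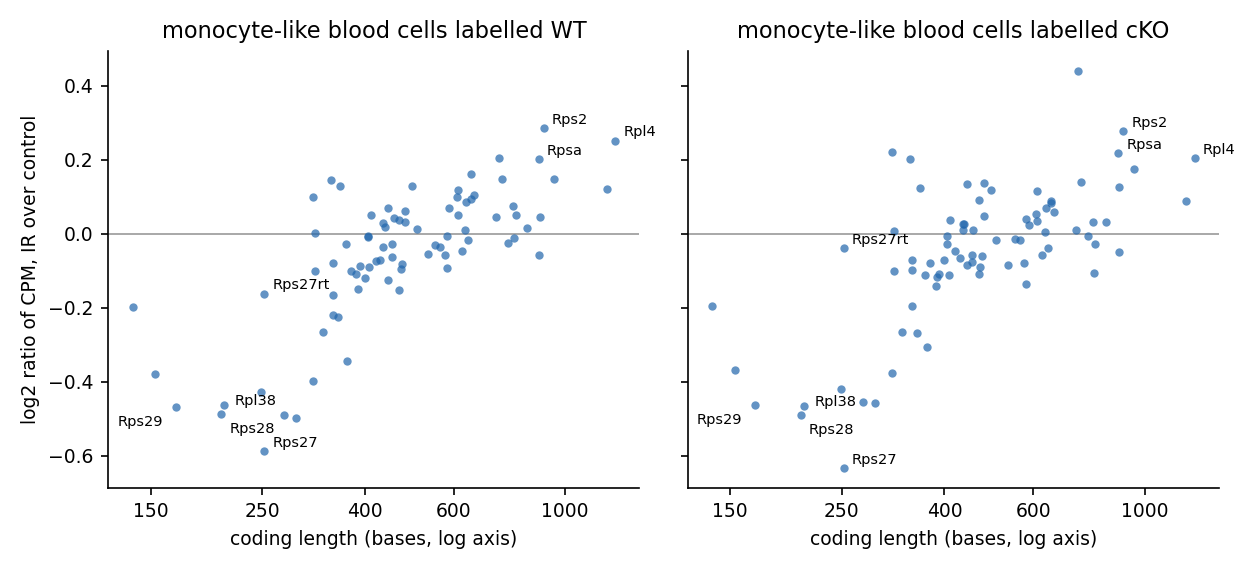
Log2 ratio of CPM, IR over control (y axis), against coding length in bases (log x axis) for RP genes in monocyte-like blood cells labelled WT (left) and cKO (right), 1 point per gene. Short members such as Rps27 (-0.59 and -0.63) and Rpl38 lie low in both panels and long members such as Rps2 and Rpl4 lie above 0.

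Differences between the Ythdf2 labels in the RP share were smaller than those with IR in tumor. In tumor control cKO stood above WT by 0.085 on the log2 scale, with 69 of 83 members higher (62.7% of all genes) and 14 lower (37.3%), a split of 46 to 37 under TMM scaling. In tumor IR cKO stood at -0.032, with 61 members lower (42.5% of all genes) and 22 higher (57.5%). A stricter hashtag rule, by which WT also needed 4 times as many WT as cKO hashtag UMIs, turned this to 0.016, and the mean over cells to 0.033. That rule kept 984 of 2526 WT cells in tumor control and 2434 of 3151 in tumor IR, so most WT labels in tumor control rest on a small margin between the hashtags. In blood control cKO stood at -0.069, with 76 members lower (49.8%) and 7 higher (50.2%), and in blood IR at 0.060, with 78 higher (61.8%) and 5 lower (38.2%), or 56 and 27 under TMM scaling. For blood IR the share ratio was 0.015 under TMM scaling and -0.011 as a mean over cells. No member passed a difference of 1 in any of the 4 comparisons, in which, in the order above, 3.69%, 0.230%, 0.707% and 0.166% of all genes were higher and 1.39%, 1.02%, 1.54% and 0.541% lower by that much. With the cluster shares of UMIs held as in WT the ratios were 0.0019, 0.026, 0.012 and 0.040. Among the members farthest from 0 in tumor control were Rpl3l (-0.77), Rps27 (-0.14) and Rps2 (0.29). Rps27 (-0.17) and Rps27rt (-0.26) were low and Rpl3l (0.24) high in blood control, and Rps27 was lowest (-0.083) and Rpl7l1 highest (0.18) in blood IR. In tumor IR Rplp0 (-0.14) and Rpl41 (0.14) were among those farthest from 0.

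The label difference did not run the same way in all blood classes. Neutrophil-like cells held a lower RP share in cKO than in WT, at 3.53% against 4.29% in control (-0.28, interval -0.29 to -0.28) and 3.59% against 3.87% after IR (-0.11, -0.12 to -0.10). In them 80 of 83 members were lower in control, where 65.1% of 6110 genes were, and 75 after IR, where 49.2% of 6132 genes were. Rpl22l1 (-0.70) and Rpl36a (-0.68) were the lowest in control and Rps20 (-0.40) after IR. The share was lower in cKO in 8 of 8 pairs of neutrophil-like clusters. In control clusters 0, 1, 6 and 10 stood at -0.087, -0.034, -0.050 and -0.076, each a smaller difference than that of the class (-0.28). After IR they stood at -0.097, -0.084, -0.19 and -0.089, with 56 cKO and 38 WT cells in cluster 6. The makeup of the class differed between the labels in blood control. Cluster 6 held 1131 of the cKO cells and 69 of the WT cells there, and cluster 19 held 77 and 13. The part of this makeup in the class ratio was not tested. Monocyte-like cells stood higher in cKO, by 0.043 in control and 0.047 after IR, with 70 and 74 of 82 members higher (64.3% and 63.1% of all genes). Nonclassical monocyte-like cells stood higher by 0.023 and 0.084. Under the stricter hashtag rule these values were -0.28 and -0.11, 0.044 and 0.047, and 0.0027 and 0.071. The tumor classes were divided too. In untreated tumor cKO stood above WT in macrophage-like (0.064) and NK cell-like cells (0.053) and below it in dendritic cell-like cells (-0.065), fibroblast-like cells (-0.064), cluster 7 (-0.12) and cluster 12 (-0.025, interval -0.067 to 0.018). The macrophage-like clusters of untreated tumor did not share 1 direction. Cluster 2 stood at 0.13 and cluster 9 at 0.066 (538 cKO and 197 WT cells), but cluster 5 at -0.24 (96 and 247 cells). After IR cKO stood above WT in 6 of 7 tumor classes, by 0.019 in macrophage-like cells to 0.11 in cluster 11. It stood below WT in cluster 12 (-0.28).

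Tumor and blood were compared within treatment. These comparisons share groups with those of IR against control, so they are not independent of them. Without IR, tumor stood above blood by 0.43 in WT and 0.58 in cKO, with 71 of 83 members higher in WT (54.5% of all genes) and 73 in cKO (58.0%), and 12 and 10 lower (45.5% and 42.0%). In WT 4 members were higher by at least 1 (19.8% of all genes) and in cKO 16 (27.7%), shares below those of all genes. Rpl12, the highest, stood at 1912 CPM in tumor and 771.2 in blood in WT (1.31) and at 2327 and 699.8 in cKO (1.73). Rps2 (1.30 and 1.57) and Rpl14 (1.12 and 1.34) followed, and Rpl3l (-2.23 and -3.25), Rps27 (-0.83 and -0.80) and Rps27rt (-0.83 and -0.63) were low in tumor. Rpl3l was the only member lower by at least 1 (15.8% and 16.6% of all genes). After IR tumor and blood stood at 0.016 in WT, with 49 members higher (46.3% of all genes) and 34 lower (53.7%), and at -0.076 in cKO, with 35 higher (45.2%) and 48 lower (54.8%). Rpl3l was again the only member lower by at least 1 (-1.67 and -1.75, where 16.5% and 16.3% of all genes were). TMM scaling brought the share ratios to 0.094 and 0.036, with 63 and 51 higher, and as a mean over cells the ratios were 0.44 and 0.49. The mix of cell types differed between the tissues and cannot be told apart from tissue in these sums.

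Within classes present in both tissues the direction depended on the class. Monocyte-like cells of irradiated tumors held 9.77% (WT) and 10.2% (cKO) against 19.3% and 19.9% in blood after IR, for ratios of -0.98 and -0.96. All 82 members tested were lower in tumor in both labels, where 68.3% and 69.6% of all genes were, and 37 and 36 were lower by at least 1 (29.1% and 28.4%). Rpl35 (-1.48 and -1.41), Rpl36a (-1.40 and -1.42) and Rpsa (-1.41 and -1.39) were among the lowest, and Rpl7l1 was the least lowered (-0.45 and -0.49). The cells came from different clusters, cluster 8 in tumor and cluster 4 in blood, and summed interferon-stimulated genes stood at 14180.4 and 15717 CPM in the tumor cells, whose part in the lower RP share was not tested. NK cell-like cells ran the other way, at 27.8% in tumor and 16.9% in blood in control WT (0.72), 28.8% and 16.0% in control cKO (0.85), and 22.5% and 16.2% in IR WT (0.48). The tumor side of these values may include T cells, since a T cell-like cluster with tumor cells appeared at a clustering resolution of 1.5. Their part in these ratios was not tested. Dendritic cell-like cells of WT stood lower in tumor, by -0.24 in control and -0.54 after IR. These cells too came from different clusters, nearly all of them from cluster 15 in tumor and cluster 16 in blood for NK cell-like cells. For dendritic cell-like cells they were clusters 14 (led by Plet1 and Ccl17) and 18 (Ccl22 and Ccr7) in tumor and cluster 17 (Cd209a and Cd7) in blood, so tissue and cluster cannot be told apart in either class.

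Neutrophil-like and monocyte-like cells of the same blood pools share tissue, library and label, and their RP levels lay far apart. In all 4 pools 81 of 83 members were lower in neutrophil-like cells, where 57.8% of 6365 genes were, and 77 were lower by at least 1, where 33.0% were. The mean log2 ratio over the 4 pools had a median of -2.70 over members and -0.53 over all genes. The members did not move as one. Within a pool the log2 ratios had an SD of 1.18 to 1.30 among members, while the SD of one member over the 4 pools had a median of 0.18. These 4 pools come in pairs from the same library.

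At the low end, Rpl10a, a large-subunit protein, stood at 45.1, 33.0, 41.1 and 37.1 CPM in the neutrophil-like cells of blood control WT, control cKO, IR WT and IR cKO. In the monocyte-like cells of the same pools it stood at 1720.3, 1831, 1837 and 1937, for a log2 ratio of -5.55 ± 0.24 (SD, n = 4 pools). Rpl3 was at -5.11 ± 0.12, Rpsa at -5.05 ± 0.17, Rpl36al at -4.95 ± 0.30, Rpl12 at -4.78 ± 0.28, Rps20 at -4.77 ± 0.31 and Rps18 at -4.66 ± 0.24. The ranges of the 2 classes were far apart for each of these. At the other end, Rps9, a small-subunit protein, stood at 3317, 2934, 3148 and 3259 CPM in neutrophil-like cells and at 4166, 4452, 3908 and 4054 in monocyte-like cells, for -0.39 ± 0.14. Rps27 was at -0.45 ± 0.23, Rpl37 at -0.93 ± 0.19 and Rps27a at -1.04 ± 0.14. Rps27rt stood at -0.058 ± 0.17 and did not keep 1 direction over the pools. As a result Rps9 held 1.01 to 1.17 times its free RNA level in neutrophil-like cells, while Rpl10a held no more than 5.196% of it. If all Rpl10a UMIs of neutrophil-like cells came from free RNA, free RNA would supply at most 0.451 to 0.622 percentage points of their 3.53% to 4.29% RP share.

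Coding length sorted these members only weakly (r -0.15, rho -0.24 over 83). Relative to the RP total, the median of the shortest members was -0.24, of the middle members -0.14 and of the longest -0.76. Ribosome-linked genes outside the rule also lay far apart, with Fau at -0.24 ± 0.21 and Rack1 at -3.90 ± 0.15. Eef1a1, the main elongation factor, was at -3.49 ± 0.15, Tpt1 at -1.84 ± 0.15 and Npm1 at -4.72 ± 0.37. All 6 elongation factors tested were lower in all pools (median -2.51), as were all 15 other TOP mRNAs (-2.17), 18 of 21 initiation factors (-1.93) and 64 of 66 mitochondrial RPs (-2.61).

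**Figure D5:**
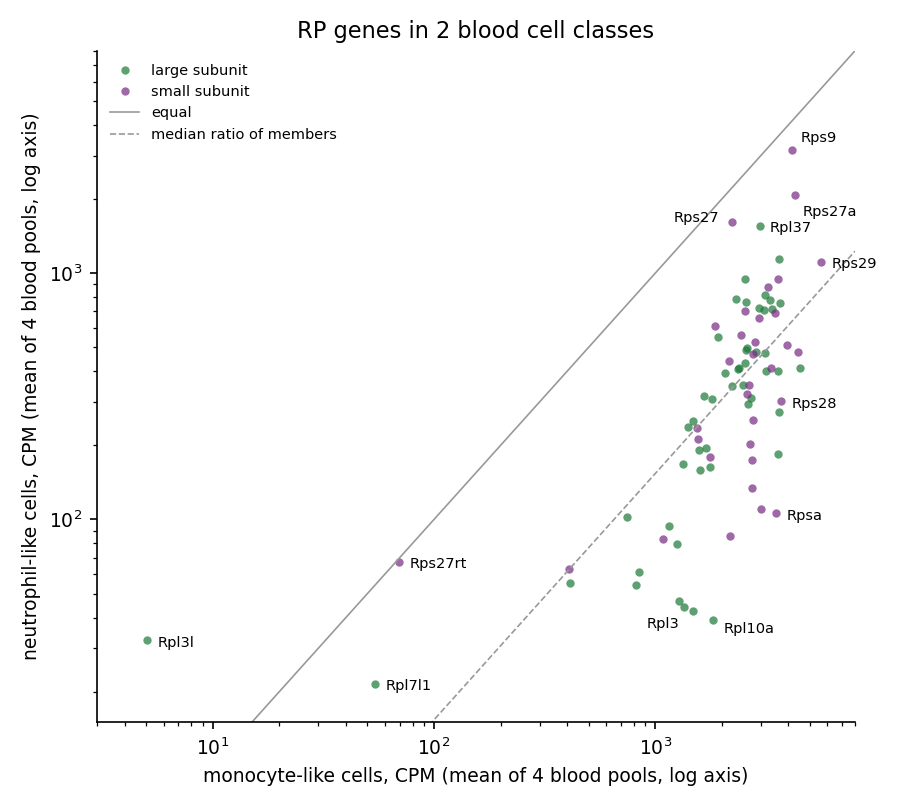
Mean CPM over the 4 blood pools of each RP gene in neutrophil-like cells (y axis) against monocyte-like cells (x axis), both log axes, green for large-subunit and purple for small-subunit members. The solid line marks equal levels and the dashed line the median ratio of members (-2.70 on the log2 scale). Rps9 and Rps27 lie close to the solid line, Rpl10a, Rpl3 and Rpsa far below it, and Rpl3l above it.

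The paralog pairs divided differently by cell type. Rps27l, which is known as a p53 target, made up 7.84% to 14.1% of the UMIs of Rps27l and Rps27 together in the blood groups and 18.3% to 21.8% in the tumor groups. By class its median was 3.78% in neutrophil-like, 17.6% in monocyte-like and 23.7% in macrophage-like cells. Rpl22l1 made up 19.4% to 22.5% of its pair with Rpl22 in the 8 groups, 10.4% in fibroblast-like cells and 29.3% in NK cell-like cells. Rpl36al made up 47.9% to 62.3% of its pair with Rpl36a, and 28.9% in fibroblast-like cells, with the uncertainty on split reads given above. Rpl7l1 made up 2.90% to 3.85% of its pair with Rpl7, and Rps27rt 2.85% to 4.06% of its pair with Rps27.

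Rpl3l, known for expression in skeletal muscle and heart, was the member whose pattern ran against the others. Its level was 17.4 to 20.8 CPM in the blood groups and 2.2 to 5.4 in the tumor groups. In neutrophil-like cells it stood at 28.3 to 34.4 CPM and in monocyte-like cells at 2.14 to 8.52, for a log2 ratio of 2.83 ± 0.99 (SD, n = 4 pools). It was the only member higher in neutrophil-like cells in all 4 pools (31.0% of all genes). Of the UMIs of Rpl3l and Rpl3 together, Rpl3l made up 41.2% to 44.2% in neutrophil-like cells, since Rpl3 was at 40.4 to 43.6 CPM there, and 0.14% to 0.62% in monocyte-like cells. In NK cell-like cells it was counted in 0 of 6699, which allows a share of up to 0.0448%. Rpl3l (chr17:24727820-24736143, plus strand) ends 498 bases before Msrb1 (chr17:24736642-24742778, plus strand), which encodes a methionine sulfoxide reductase. Msrb1 was also highest in neutrophil-like cells, at 4489 CPM against 1133 in monocyte-like cells and 374.8 in macrophage-like cells, with cells pooled over groups. Per 100 Msrb1 UMIs there were 0.72 Rpl3l UMIs in neutrophil-like, 0.40 in monocyte-like, 1.20 in nonclassical monocyte-like, 1.19 in macrophage-like and 1.57 in dendritic cell-like cells. The part of this neighbour in the Rpl3l counts was not tested.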

How the data were processed

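The deposited values were raw counts: the authors aligned 10x Genomics 3′ libraries with Cell Ranger (6.0.1, with Seurat 4.0.6 downstream, per the submitters' processing notes) to mm10 with a GENCODE annotation and deposited UMI counts per gene and hashtag for every barcode, without normalization. From these counts cells were called (UMI threshold, then a test against the ambient profile with 10000 simulated barcodes at a level of 0.01), those under 200 genes or above 25% mitochondrial UMIs were dropped, and labels were set from at least 20 hashtag UMIs (WT where B0301 was at least B0302, cKO where B0302 was at least 4 times B0301). A doublet score from simulated doublets removed the top 6% per library. The study used HTODemux for labels, so its cell sets differ. Cells were clustered with scanpy 1.11.5 and igraph 0.11.9 (2000 variable genes, 40 components, resolution 0.8) without the RP genes, Ythdf2, Lyz1 and Lyz2, and a cluster was named where at least 3 markers of 1 type were raised. UMIs were summed per group, and genes with at least 100 UMIs over both groups were compared as log2 ratios of CPM with a pseudocount of 1 UMI at the groups' mean depth. A gene counted as called past a log2 ratio of 1, with 0.5 as a second limit. Intervals were exact (Clopper-Pearson and conditional binomial, scipy 1.17.1) at 95%. Gene UMIs per library were 51653956 to 87703837 over all barcodes. Positions came from another GENCODE release on the same build, and start sites from RefSeq (GRCm38.p6). The ratio script was tested on simulated data. TMM factors came from edgeR 4.0.16 in R 4.3.3.

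The genes named were the 10 members of highest mean level, the 3 highest and 3 lowest members of each comparison, the paralogs with their parents, the stalk genes and Rpsa; genes named within a cell class were chosen after their values were seen. Values of some genes that this rule names are not reported here. Members, lists and markers were chosen with earlier results of these data known. Nothing here was tested across samples, since each group was 1 pool.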

Additional observations from a re-analysis of the deposited data

Results flagged for a closer look

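In 8 pairs of comparisons the RP share ratios had opposite signs, and in none was the difference tested, since each group was 1 pool. On the log2 scale IR against control in cKO was -0.61 in tumor and 0.053 in blood, and within blood it was -0.077 in WT and 0.053 in cKO. The cKO label against WT was 0.085 in untreated and -0.032 in irradiated tumor, and -0.069 in untreated and 0.060 in irradiated blood, so its sign also differed between the tissues, both without IR (0.085 and -0.069) and after it (-0.032 and 0.060). Tumor against blood in cKO was 0.58 in control and -0.076 after IR, and after IR it was 0.016 in WT and -0.076 in cKO. In 7 of the 8 pairs at least 1 of these ratios turned sign under an alternative, the exception being the cKO label in untreated tumor and untreated blood. The 0.053 turned to -0.017 under TMM scaling and to -0.11 as a mean over cells, and the 0.060 to -0.011 as a mean over cells. The -0.032 turned to 0.016 under the stricter hashtag rule and 0.033 as a mean over cells. The 0.016 turned to -0.032 under the stricter hashtag rule, and the -0.076 to 0.036 under TMM scaling and 0.49 as a mean over cells.

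Signal also stood outside the main measurement. Over the 8 groups the -ps symbols left out of the rule held 4493 UMIs (Rpl10-ps3), 12 (Rpl9-ps1), 1125 (Rpl36a-ps1) and 4733 (Rpl9-ps6). Cell barcodes with under 20 hashtag UMIs held 13.3% RP UMIs in the tumor control matrix and 19.5% in the tumor IR matrix, and nearly all of them were cells of the other tumor matrix.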

How the results depend on the processing

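No paired analysis was possible because each group was 1 pool and no result came from a test. The lower RP share after IR in tumor and the higher share in untreated tumor than in untreated blood kept their sign under every alternative run here, whereas differences under 0.1 between labels or in blood did not all do so. Values below are log2 share ratios, in the order IR against control (tumor WT, cKO, blood WT, cKO), cKO against WT (untreated then irradiated tumor, untreated then irradiated blood) and tumor against blood (control WT, cKO, IR WT, cKO). Under TMM scaling they were -0.34, -0.40, -0.096, -0.017, 0.015, -0.043, -0.063, 0.015, 0.34, 0.42, 0.094 and 0.036, and the members past a ratio of 1 were 1 for IR in tumor cKO and 6 for untreated tumor against blood in cKO. Per UMI outside the RP and mitochondrial genes they were -0.58, -0.73, -0.088, 0.062, 0.11, -0.035, -0.078, 0.072, 0.52, 0.71, 0.024 and -0.083. As a mean over cells they were -0.55, -0.57, -0.17, -0.11, 0.049, 0.033, -0.075, -0.011, 0.83, 0.95, 0.44 and 0.49.

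Other alternatives are given where they moved a value past its counting interval. Without doublet removal IR against control was -0.50, -0.60, -0.081 and 0.038, cKO against WT in the last 3 was -0.020, -0.051 and 0.067, and tumor against blood was 0.56 (control cKO) and 0.013 (IR WT). With every barcode of at least 500 UMIs, blood IR was -0.100 and 0.024, cKO against WT in blood control -0.061, and tumor against blood 0.45, 0.59, 0.057 and -0.037. With the stricter hashtag rule for WT, IR was -0.50 (tumor WT) and -0.082 (blood WT), cKO against WT 0.12, 0.016 and -0.075 in the first 3, and tumor against blood 0.39 (control WT) and -0.032 (IR WT). With at most 10% mitochondrial UMIs, values in cKO were -0.61 (IR, tumor), 0.089 (against WT, tumor control), 0.59 and -0.073 (tumor against blood, control and IR). With UMIs of both tumor matrices added, IR in tumor was -0.48 and -0.60, and with no hashtag minimum it was -0.18 over both labels. Within macrophage-like cells, IR was -0.50 and -0.53 and cKO against WT 0.068 and 0.040 at a clustering resolution of 0.4, and -0.46, -0.49, 0.061 and 0.028 at 1.5. With a minimum of 1 UMI per gene, 1 member passed in cKO against WT in tumor control and 2 in tumor against blood after IR in cKO. Without cluster 12, an alternative chosen after seeing the data, IR was -0.48, -0.60 and 0.050 (tumor WT, tumor cKO, blood cKO) and tumor against blood 0.43, 0.59, 0.027 and -0.066. In each of these cases the cause was not tested.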
